A study of Homo sapiens with 8 samples.

Results

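The 10 genes described here encode proteins of the cornified envelope and were chosen by name, as a functional group: *IVL*, *SPRR1A*, *SPRR1B*, *SPRR2A*, *SPRR2D*, *SPRR3*, *TGM1*, *EVPL*, *PPL* and *A2ML1*. All 10 were among the 13842 genes measured by RNA-seq, and all 10 were tested. The 8 libraries formed 4 groups of 2: MCF10A pLOC-empty, MCF10A pLOC-*MALINC1*, DCIS.COM pLOC-empty and DCIS.COM pLOC-*MALINC1*. MCF10A is an immortalised, non-tumorigenic human breast epithelial line, and DCIS.COM is a line of the same MCF10 series that models ductal carcinoma in situ. Both lines were stably transduced with the lentiviral vector pLOC, either empty or carrying *MALINC1*, a long non-coding RNA, and all groups went through blasticidin selection, so the control cells carry the vector too. MCF10A was grown with horse serum, epidermal growth factor, hydrocortisone, insulin and cholera toxin, whereas DCIS.COM was grown with horse serum and none of these supplements, so cell line and medium cannot be told apart in a comparison of the lines. The labels do not say whether the libraries of a group came from separate cultures or transductions, so the spread between them may be technical. For each gene the p-values use an estimate of this spread that all 4 groups share. It is drawn towards that of genes at a similar level. The SE of a gene is therefore the same in both lines, whatever its reads there.

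The cornified envelope is a layer of cross-linked protein that replaces the plasma membrane when a keratinocyte of a stratified epithelium ends its life. Envoplakin (*EVPL*) and periplakin (*PPL*), members of the plakin family that link keratin filaments to desmosomes and the membrane, form an early scaffold together with involucrin (*IVL*). Transglutaminase 1 (*TGM1*), a membrane-bound enzyme, cross-links glutamine and lysine residues of these proteins, and the small proline-rich proteins (*SPRR* genes) are short substrates that bridge other envelope proteins. *A2ML1* encodes a secreted protease inhibitor of the alpha-2-macroglobulin family that is made in the upper layers of the epidermis. Mammary epithelium in vivo is not cornified, but cultured epithelial cells can transcribe these genes.

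The libraries held between 20604377 and 37550457 reads counted on genes, so that 1 read was worth 0.0279 to 0.0477 CPM (read counts scaled to the library size). Values are given as CPM after removal of the prior count that the deposited log2 values contain, and fold changes as differences of the deposited log2 CPM. The replicates of a group differed by more than counting noise in every group (chi-square per degree of freedom of 3.27 to 20.4), so no library was counted as a repeat of another. *MALINC1* was at 1.25 ± 0.357 CPM in MCF10A pLOC-empty and 12.5 ± 1.05 CPM in MCF10A pLOC-*MALINC1*, and at 1.25 ± 0.146 and 21.8 ± 3.76 CPM in the corresponding DCIS.COM groups (SD, n = 2). The small cytoplasmic RNAs *RN7SL1* and *RN7SL2* took 8.22% to 15.7% of the reads of a library. The basal epithelial keratin *KRT5* was at a mean of 6150 CPM in MCF10A pLOC-empty and 1069 CPM in DCIS.COM pLOC-empty, and the estrogen receptor gene *ESR1* at 1.77 and 2.22 CPM.

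On GRCh37, 6 of the 10 genes lie in the epidermal differentiation complex of chromosome 1, the cluster of envelope precursor and S100 genes taken here from *S100A10* to *S100A1* (chr1:151955391-153604515). In chromosome order these are *IVL* (chr1:152881022-152884362, plus strand), *SPRR1A* (chr1:152956557-152958290, plus), *SPRR3* (chr1:152974223-152976332, plus), *SPRR1B* (chr1:153003679-153005376, plus), *SPRR2D* (chr1:153012208-153014407, minus) and *SPRR2A* (chr1:153028596-153029988, minus). The other genes are dispersed: *TGM1* at chr14:24718320-24733638 (minus), *EVPL* at chr17:74000583-74023387 (minus), *PPL* at chr16:4932508-5010742 (minus) and *A2ML1* at chr12:8975217-9039597 (plus). Merged over their annotated transcripts, the exons of *IVL* and of the *SPRR* genes add up to 619 to 2152 nt, against 3735 nt for *TGM1* and 7156 to 7699 nt for *A2ML1*, *EVPL* and *PPL*. The values are sums over all exons of a gene, so none of them separates coding from untranslated parts.

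RefSeq promoters were at hand for 6 of the 10 genes, and 5 of them held the AP-1 motif TGAGTCA in the 250 bases upstream of the annotated start. AP-1 is the dimer of JUN and FOS family proteins, whose subunits are among the genes measured below. The promoters of these 5 genes are shown because they share this motif. Each is printed 5′ to 3′ on the strand of its gene with TGAGTCA in capitals, was taken from the RefSeq table (GRCh38) and matched GRCh37 exactly and once at the position given.
*IVL* promoter, chr1:152880772-152881021, plus strand: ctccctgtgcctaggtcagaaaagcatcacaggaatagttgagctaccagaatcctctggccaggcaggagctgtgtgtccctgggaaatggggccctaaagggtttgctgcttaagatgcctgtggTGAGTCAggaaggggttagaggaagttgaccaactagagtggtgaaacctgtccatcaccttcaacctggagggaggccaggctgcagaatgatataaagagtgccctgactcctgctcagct
*SPRR1A* promoter, chr1:152956307-152956556, plus strand: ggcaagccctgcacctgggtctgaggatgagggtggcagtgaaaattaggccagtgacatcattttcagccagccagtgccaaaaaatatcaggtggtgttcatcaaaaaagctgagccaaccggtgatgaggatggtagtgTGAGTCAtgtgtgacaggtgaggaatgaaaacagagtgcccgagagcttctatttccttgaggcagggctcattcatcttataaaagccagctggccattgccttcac
*SPRR1B* promoter, chr1:153003429-153003678, plus strand: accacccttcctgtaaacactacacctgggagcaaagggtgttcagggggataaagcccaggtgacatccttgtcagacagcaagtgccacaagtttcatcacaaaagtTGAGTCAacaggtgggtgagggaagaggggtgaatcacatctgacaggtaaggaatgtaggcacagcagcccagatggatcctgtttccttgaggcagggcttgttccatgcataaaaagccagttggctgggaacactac
*SPRR2A* promoter, chr1:153029989-153030238, minus strand: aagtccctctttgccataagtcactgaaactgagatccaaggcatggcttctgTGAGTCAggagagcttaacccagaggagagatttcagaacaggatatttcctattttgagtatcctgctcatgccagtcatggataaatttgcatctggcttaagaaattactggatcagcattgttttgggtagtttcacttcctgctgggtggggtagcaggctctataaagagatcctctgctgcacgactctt
*SPRR3* promoter, chr1:152973975-152974224, plus strand: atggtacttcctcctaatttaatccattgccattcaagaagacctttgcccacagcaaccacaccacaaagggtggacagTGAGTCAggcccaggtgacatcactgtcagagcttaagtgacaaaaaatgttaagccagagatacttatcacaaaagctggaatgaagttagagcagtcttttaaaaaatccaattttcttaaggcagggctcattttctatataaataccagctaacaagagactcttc

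Counted from the base next to the start as position -1, the motif began at -123 in *IVL*, -108 in *SPRR1A*, -141 in *SPRR1B*, -197 in *SPRR2A* and -170 in *SPRR3*. Neither of the *A2ML1* promoters held it. Over the same length and on both strands, TGAGTCA was found in 4.20% of all 35116 RefSeq promoters and in 3.18% of those of the genes tested. The TATA motif TATAAA was found in 5 of the 6 genes, all but *SPRR1B*, and in 10.7% of all promoters. The grainyhead motif ACCGGTT was found in *SPRR1A* (0.626% of all promoters) and the octamer ATGCAAAT in *SPRR2A* (1.63%), and neither the interferon response motif (3.02%) nor the cyclic AMP element TGACGTCA (1.65%) was found in any of the 6. These matches describe the letters only. *SPRR2D*, *TGM1*, *EVPL* and *PPL* were not searched.

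*SPRR2A* and *SPRR2D* are near-identical copies, which bears on how their reads can be told apart. Their coding sequences of 216 nt differ at 4 positions (98.2% identical), here in capitals, with positions on GRCh37.
*SPRR2A* coding sequence, chr1:153028996-153029211, minus strand: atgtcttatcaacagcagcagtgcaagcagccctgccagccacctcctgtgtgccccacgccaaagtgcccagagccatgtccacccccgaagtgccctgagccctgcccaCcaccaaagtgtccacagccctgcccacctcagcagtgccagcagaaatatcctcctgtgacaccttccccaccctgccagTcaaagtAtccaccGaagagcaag
*SPRR2D* coding sequence, chr1:153012607-153012822, minus strand: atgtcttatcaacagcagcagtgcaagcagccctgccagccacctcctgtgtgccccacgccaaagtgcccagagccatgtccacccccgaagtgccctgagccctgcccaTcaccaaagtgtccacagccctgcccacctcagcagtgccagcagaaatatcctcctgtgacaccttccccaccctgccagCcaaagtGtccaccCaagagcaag

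*SPRR1A* and *SPRR1B*, with coding sequences of 267 nt, were 96.2% identical, but no stretch of 76 nt, the read length, was shared between their transcripts. Of the 76-nt stretches of *SPRR2A* transcripts 24.9% also occurred in other *SPRR2* genes, and of *SPRR2D* 8.39%, so the split of reads between these genes is uncertain. *EVPL* shared 0.666% of its stretches with *EVPLL*, and the other genes shared none. The exons of *IVL*, *EVPL*, *PPL* and *A2ML1* overlap genes on the opposite strand (a lncRNA, *CDK3*, *SEC14L5* and *A2ML1-AS1*, respectively), and the strand setting of the counting is not given in the sources used here. Of these partners *CDK3* was in the table, at group means of 1.79 to 4.09 CPM against 74.9 to 102 CPM for *EVPL*.

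In MCF10A pLOC-empty cells, the envelope genes were transcribed at widely different levels. Per kb of exon, *A2ML1* was highest at 57.9 CPM per kb, followed by *IVL* (41.9), *PPL* (40.5), *SPRR2D* (20.7), *SPRR2A* (17.4), *TGM1* (13.9), *SPRR1B* (12.3), *EVPL* (12.1), *SPRR1A* (4.79) and *SPRR3* (2.97). Only *IVL* with *PPL* and *SPRR1B* with *EVPL* overlapped between their libraries among neighbours in this order. In DCIS.COM pLOC-empty cells the order was *PPL* (37.2 CPM per kb), *EVPL* (10.2), *SPRR1B* (5.59), *SPRR2A* (3.76), *SPRR2D* (3.36), *IVL* (2.09), *A2ML1* (1.93), *SPRR1A* (1.25), *TGM1* (0.164) and *SPRR3* (0.114). Here *SPRR2A* with *SPRR2D*, *IVL* with *A2ML1* and *TGM1* with *SPRR3* overlapped. The plakin scaffold genes thus headed the list in DCIS.COM, and the protease inhibitor and *IVL* headed it in MCF10A.

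**Figure D1:**
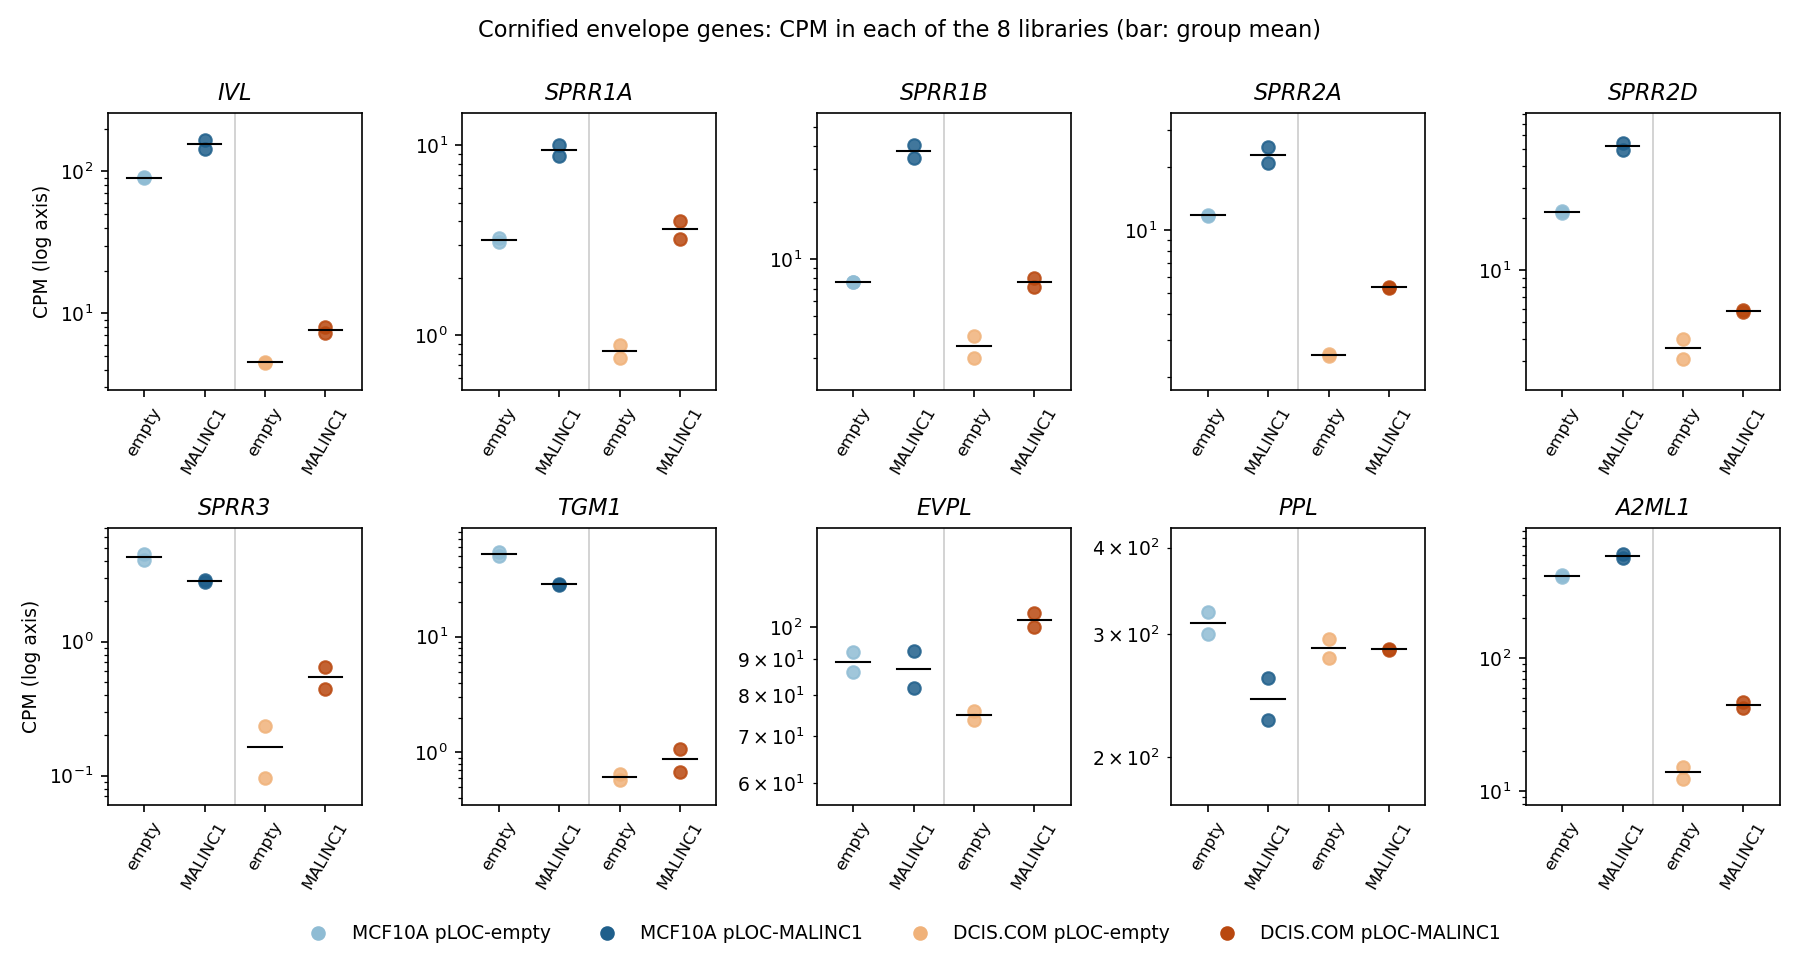
CPM of the 10 cornified envelope genes in each of the 8 libraries, on a log axis that differs between panels; points are libraries, coloured by group, and bars are group means of 2 libraries. *SPRR1B* rises from 7.62 CPM in both MCF10A pLOC-empty libraries to 34.6 and 40.4 CPM with *MALINC1*, and with the same vector all genes but *EVPL* and *PPL* have means in DCIS.COM more than 2-fold below those in MCF10A.

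The first question was which envelope genes differ when *MALINC1* is overexpressed in MCF10A. The short bridging precursors *SPRR1A*, *SPRR1B* and *SPRR2D* rose, *IVL*, *SPRR2A* and *A2ML1* were higher by less than 2-fold, and *TGM1* and *PPL* were lower by less than 2-fold. A gene was called a DEG at an adjusted p below 0.01 (limma, Benjamini-Hochberg over all 13842 genes) with a change over 2-fold. By this rule 3 of the 10 genes rose and 0 fell, against 2.99% and 2.51% of all genes tested. At an adjusted p below 0.01 with any fold change, 6 were higher and 2 lower, against 21.5% and 18.1% of all genes. The median log2 fold change was 0.64 over the 10 genes and 0.00 over all genes.

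Among the precursors, *SPRR1B* had the highest fold change in MCF10A. It was at 7.62 CPM in both pLOC-empty libraries and at 40.4 and 34.6 CPM in the pLOC-*MALINC1* libraries, a 4.87-fold rise (log2 fold change 2.28, SE 0.13, adjusted p = 3.32e-08). Its close relative *SPRR1A* went from 3.24 and 3.10 CPM to 10.1 and 8.84 CPM, 2.93-fold (log2 fold change 1.55, SE 0.16, adjusted p = 6.33e-06). *SPRR2D* went from 21.5 and 22.0 CPM to 54.1 and 49.7 CPM, 2.38-fold (log2 fold change 1.25, SE 0.11, adjusted p = 1.80e-06). The groups did not overlap for these 3 genes or, in all, for 9 of the 10 genes, against 76.5% of all genes tested. The calls of the 3 genes were kept when any single library was left out.

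*SPRR2A* lay just under the fold threshold, with 11.7 and 11.8 CPM in pLOC-empty and 25.0 and 21.0 CPM in pLOC-*MALINC1* (1.94-fold, log2 fold change 0.96, SE 0.11, adjusted p = 1.26e-05). Without MCF10A pLOC-*MALINC1* replicate 2 its log2 fold change was 1.08, past the threshold. *IVL*, the scaffold substrate, was at 89.3 and 91.2 CPM against 167 and 145 CPM (1.72-fold, log2 fold change 0.78, SE 0.073, adjusted p = 2.57e-06). Both genes were thus higher in each pLOC-*MALINC1* library than in either control. *SPRR3*, which is typical of oral and esophageal epithelium, went the other way, at 4.48 and 4.07 CPM against 2.76 and 2.87 CPM, but did not pass the test (log2 fold change -0.59, SE 0.28, adjusted p = 0.0976). Added up, the 5 *SPRR* genes reached 48.6 CPM in each pLOC-empty library and 132 and 117 CPM in the pLOC-*MALINC1* libraries.

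The cross-linking enzyme and the plakins did not follow the precursors. *TGM1* was at 53.9 and 49.7 CPM in pLOC-empty and at 28.3 and 28.5 CPM in pLOC-*MALINC1*, lower by 1.82-fold (log2 fold change -0.86, SE 0.17, adjusted p = 0.00114). *PPL* was at 301 and 323 CPM against 259 and 226 CPM, lower by 1.29-fold (log2 fold change -0.36, SE 0.057, adjusted p = 0.000196). The partner plakin *EVPL* had overlapping groups, with 86.3 and 92.1 CPM against 92.4 and 82.0 CPM (log2 fold change -0.034, SE 0.055, adjusted p = 0.628). The protease inhibitor gene *A2ML1* was at 409 and 419 CPM against 608 and 565 CPM, 1.42-fold higher (log2 fold change 0.50, SE 0.078, adjusted p = 0.000179).

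In bulk RNA, more cells that transcribe a gene and more RNA per such cell cannot be told apart. Markers of other cell states moved in the same MCF10A comparison. Of 11 mesenchymal markers tested 5 fell (*FN1*, *CDH2*, *ZEB2*, *COL1A1* and *FAP*) and 0 rose. The summed level of the 11 was 1783 to 1838 CPM in pLOC-empty and 532 to 546 CPM in pLOC-*MALINC1*. This sum mostly follows *FN1*, at 1522 ± 45.4 against 368 ± 20.7 CPM, a gene that was higher by less than 2-fold in DCIS.COM (log2 fold change 0.85, adjusted p = 1.18e-08). Of 15 basal markers 2 rose (*TP63* and *KRT14*) and 1 fell (*OXTR*), with sums of 29276 to 29789 CPM and 35938 to 36798 CPM, and of 12 luminal markers 0 rose and 1 fell (*KRT19*), with sums of 6568 to 6727 CPM and 5490 to 5713 CPM, *PROM1* having no reads in MCF10A. Of 26 cell division genes 0 were DEGs, with sums of 5184 to 5450 CPM and 4452 to 4677 CPM. The part of these shifts in the levels of the envelope genes was not tested.

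In DCIS.COM every envelope gene other than *EVPL* and *PPL* started from a level lower by over 2-fold than in MCF10A. There *MALINC1* overexpression went with a rise of *SPRR1A*, *SPRR1B*, *SPRR2A*, *SPRR3* and *A2ML1*. *IVL*, *SPRR2D* and *EVPL* were higher by less than 2-fold. In all, 5 of the 10 genes rose and 0 fell, against 1.44% and 3.08% of all genes tested. At any fold change 8 were higher and 0 lower at an adjusted p below 0.01, against 16.4% and 16.7% of all genes. The median log2 fold change was 0.90 over the 10 genes and 0.0089 over all genes.

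*SPRR1A* led in DCIS.COM, at 0.886 and 0.764 CPM (19 and 16 reads) in pLOC-empty and 3.23 and 3.99 CPM in pLOC-*MALINC1*, a 4.10-fold rise (log2 fold change 2.03, SE 0.16, adjusted p = 7.49e-07). *A2ML1* followed, at 12.4 and 15.3 CPM against 42.4 and 46.6 CPM, 3.22-fold (log2 fold change 1.69, SE 0.078, adjusted p = 6.49e-09). Both calls were kept in each of the 19 alternatives that could be fitted for them. *SPRR1B* went from 3.92 and 3.01 CPM to 7.14 and 8.01 CPM, 2.18-fold (log2 fold change 1.12, SE 0.13, adjusted p = 1.84e-05), and without DCIS.COM pLOC-empty replicate 2 its log2 fold change was 0.94, under the threshold. *SPRR2A* went from 2.52 and 2.58 CPM to 5.39 and 5.32 CPM, 2.07-fold (log2 fold change 1.05, SE 0.11, adjusted p = 7.02e-06), but adding 0.5 or 1 CPM before the log took it under 2-fold. In this line the groups of 9 of the 10 genes did not overlap, against 73% of all genes tested.

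*SPRR3* was the rarest of the transcripts, with 5 and 2 reads in DCIS.COM pLOC-empty (0.233 and 0.0955 CPM) and 22 and 15 reads in pLOC-*MALINC1* (0.641 and 0.443 CPM). Its log2 fold change was 1.43 (SE 0.28, adjusted p = 0.00131), a call that 7 of 19 alternatives did not keep, with a value of 0.99 without DCIS.COM pLOC-empty replicate 2 and of 1.19 without DCIS.COM pLOC-*MALINC1* replicate 1. The rise of *SPRR3* therefore rests on few reads. *IVL* was at 4.48 and 4.54 CPM against 7.25 and 8.04 CPM, 1.68-fold higher (log2 fold change 0.75, SE 0.073, adjusted p = 4.64e-06). *SPRR2D* was at 4.01 and 3.06 CPM against 5.85 and 5.76 CPM, 1.65-fold higher (log2 fold change 0.72, SE 0.11, adjusted p = 0.000224). The 5 *SPRR* genes added up to 11.6 and 9.50 CPM without *MALINC1* and to 22.3 and 23.5 CPM with it.

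The envelope enzyme stayed at the lower end in DCIS.COM. *TGM1* was at 0.653 and 0.573 CPM (14 and 12 reads) in pLOC-empty and at 1.08 and 0.680 CPM in pLOC-*MALINC1*, a difference that did not pass the test (log2 fold change 0.44, SE 0.17, adjusted p = 0.0519). *EVPL* was at 75.9 and 73.9 CPM against 104.7 and 99.9 CPM, 1.37-fold higher (log2 fold change 0.45, SE 0.055, adjusted p = 2.97e-05). *PPL* had overlapping groups, at 278 and 295 CPM against 286 and 285 CPM (log2 fold change -0.0044, SE 0.057, adjusted p = 0.963). Among the marker lists in this comparison, 2 of 11 mesenchymal markers (*FAP* and *SNAI2*) fell, with sums of 656 to 674 CPM in pLOC-empty and 490 to 502 CPM in pLOC-*MALINC1*. Basal markers counted 1 riser (*OXTR*) and 2 fallers (*LAMA3* and *TAGLN*), with sums of 7930 to 8056 CPM and 7947 to 8238 CPM, luminal markers 1 faller (*PROM1*), with sums of 5322 to 5323 CPM and 5875 to 5957 CPM, and cell division genes 0 DEGs. *OXTR* was rare, at a mean of 0.764 CPM in the higher group. *KRT14*, a riser in MCF10A, was lower by less than 2-fold in DCIS.COM (log2 fold change -0.59, adjusted p = 1.45e-07). The part of these markers in the result was not tested.

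**Figure D2:**
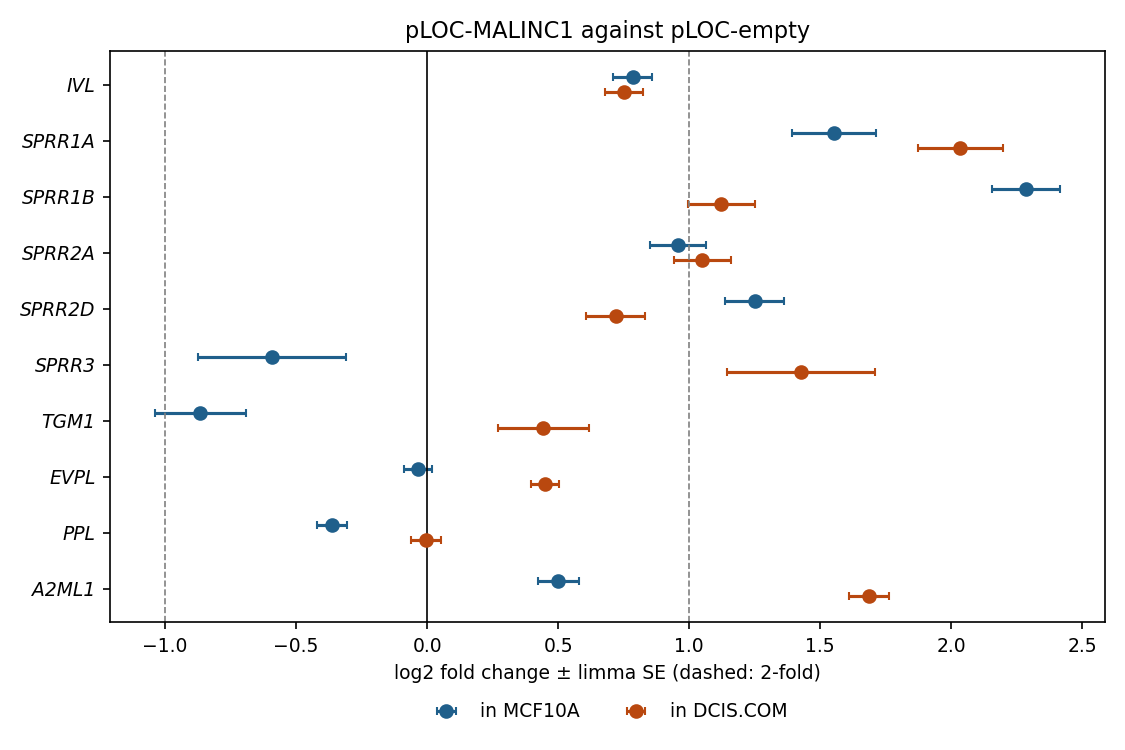
Response of each envelope gene to *MALINC1* in MCF10A (blue) and DCIS.COM (orange), as the log2 fold change over pLOC-empty, with the limma standard error; dashed lines mark 2-fold. *SPRR1A* and *SPRR1B* lie beyond 2-fold in both lines, and *TGM1* and *SPRR3* lie below 0 in MCF10A (-0.86 and -0.59) and above 0 in DCIS.COM (0.44 and 1.43).

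Of the 10 envelope genes, 6 had higher means with *MALINC1* in both lines, against 26.5% of all genes tested. The DEGs that rose in both lines were *SPRR1A* and *SPRR1B*, 2 of the 10 against 0.188% of all genes, and 4 of the 10 genes (*SPRR1B*, *SPRR3*, *TGM1* and *A2ML1*) passed the test of an unequal response by over 2-fold. The lines were compared by the contrast of the DCIS.COM response minus the MCF10A response, in the same fit. By it 3 genes responded more positively in DCIS.COM and 1 less, against 3.98% and 5.22% of all genes, and at any fold change 5 and 1, against 15.6% and 20.3%. The median of this difference was 0.42 over the 10 genes and -0.0071 over all genes.

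**Figure D3:**
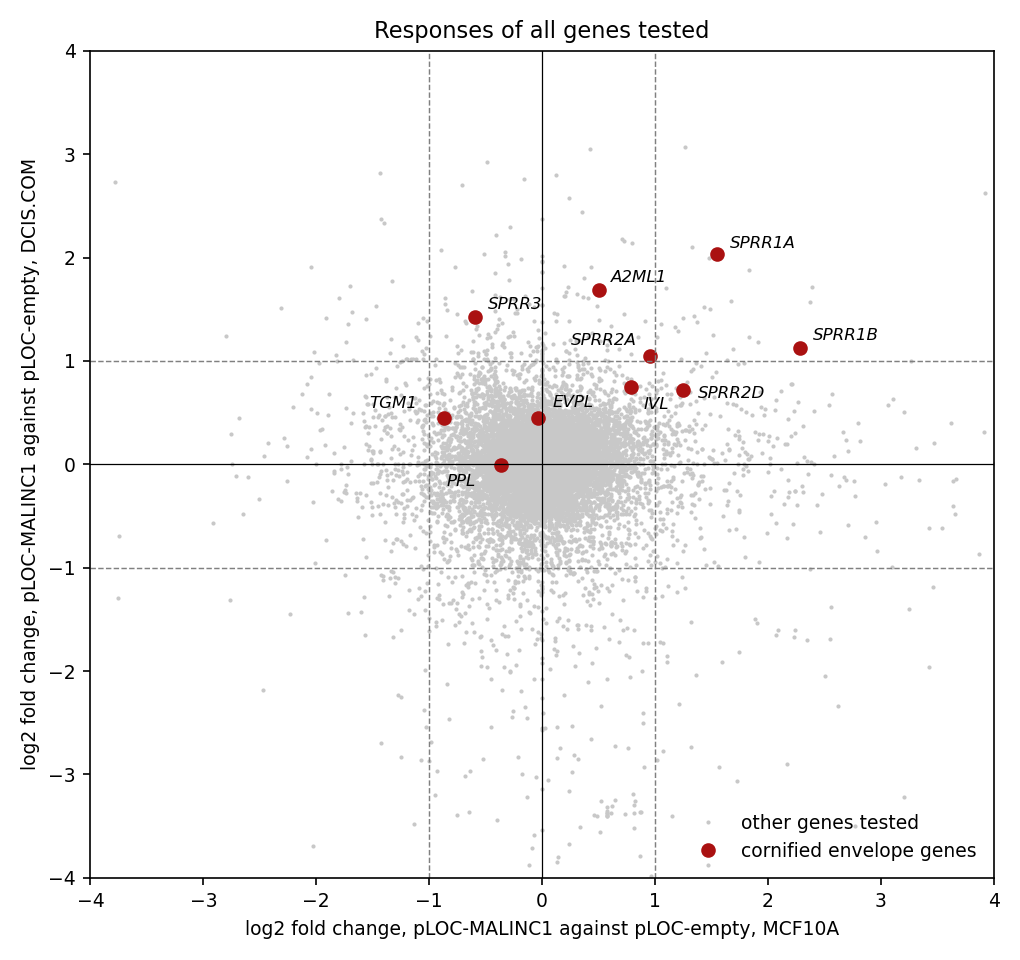
Response to *MALINC1* as the log2 fold change over pLOC-empty, in MCF10A (horizontal) and in DCIS.COM (vertical), for all 13842 genes (grey, 49 of them outside the axes) and the 10 envelope genes (red); dashed lines mark 2-fold. *SPRR1A* and *SPRR1B* lie beyond 2-fold on both axes, and *EVPL* and *PPL* lie near the centre.

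*SPRR1B* responded less in DCIS.COM than in MCF10A, by -1.16 on the log2 scale (SE 0.18, adjusted p = 0.000217), and this difference was -0.97 without DCIS.COM pLOC-empty replicate 1, under the threshold. *SPRR3* differed by 2.02 (SE 0.40, adjusted p = 0.00122), on the few reads given above. *TGM1* differed by 1.31 (SE 0.24, adjusted p = 0.000784) and *A2ML1* by 1.18 (SE 0.11, adjusted p = 2.79e-06). Thus the enzyme and the protease inhibitor had more positive responses in DCIS.COM, while the bridging precursor *SPRR1B* had the larger one in MCF10A. Under 2-fold, *EVPL* (0.48, SE 0.077, adjusted p = 0.000249) and *PPL* (0.36, SE 0.081, adjusted p = 0.00283) also had more positive responses in DCIS.COM. For *SPRR2D* (-0.53, adjusted p = 0.0149), *SPRR1A* (0.48, adjusted p = 0.0974), *SPRR2A* (0.094, adjusted p = 0.633) and *IVL* (-0.032, SE 0.10, adjusted p = 0.817) a difference between the lines was not called.

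The next comparison set the lines against each other, and here 8 of the 10 envelope genes were lower in DCIS.COM than in MCF10A by over 2-fold, *EVPL* and *PPL* being the exceptions. With the empty vector 0 rose and 8 fell, against 15.6% and 13% of all genes tested, and at any fold change 0 were higher and 9 lower, against 37.9% and 36%. The median log2 difference was -2.39 over the 10 genes and 0.031 over all genes. With *MALINC1* in both lines 0 rose and 8 fell, against 14.4% and 12.2%, and at any fold change 2 were higher and 8 lower, against 35.7% and 37.2%. The medians were -2.27 and 0.0055. The fall in DCIS.COM was not particular to these 10 genes. With the empty vector 13 of 18 other envelope precursors and enzymes tested fell and 3 rose. Of 15 stratified epithelial keratins 11 fell and 1 rose. Of the 16 other genes tested in the epidermal differentiation complex, 3 fell and 4 rose. The 2 contrasts use separate libraries, and each carries the difference in medium.

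The cross-linking enzyme showed the widest gap of the 10 genes with the empty vector. *TGM1*, at the levels given above, was lower in DCIS.COM by 75.9-fold (log2 fold change -6.25, SE 0.17, adjusted p = 3.71e-12), and by 30.6-fold with *MALINC1* (-4.94, SE 0.17, adjusted p = 3.88e-11). *A2ML1* was lower by 29.9-fold with the empty vector (-4.90, SE 0.078, adjusted p = 3.21e-14) and by 13.2-fold with *MALINC1* (-3.72, adjusted p = 3.76e-13). *IVL* was lower by 19.7-fold (-4.30, SE 0.073, adjusted p = 5.81e-14) and by 20.2-fold (-4.33, adjusted p = 7.57e-14). These 3 genes thus had at most 0.879 (*TGM1*), 44.5 (*A2ML1*) and 7.65 CPM (*IVL*) as a group mean in DCIS.COM.

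The *SPRR* genes differed less between the lines, apart from *SPRR3*. With the empty vector the log2 differences were -1.13 for *SPRR1B* (adjusted p = 3.42e-06), -1.86 for *SPRR1A* (adjusted p = 2.43e-07), -2.18 for *SPRR2A* (adjusted p = 9.11e-10), -2.61 for *SPRR2D* (adjusted p = 2.33e-10) and -4.27 for *SPRR3* (SE 0.28, adjusted p = 1.65e-08, on 2 and 5 reads in DCIS.COM). The call of *SPRR1B* was lost without DCIS.COM pLOC-empty replicate 2, with a log2 difference of -0.95. With *MALINC1* in both lines the values were -2.30, -1.37, -2.08, -3.14 and -2.25 in the same order of genes, with adjusted p of at most 9.17e-06. With the same vector, the libraries of the lines did not overlap for any of the 10 genes, against 90.1% (empty) and 90% (*MALINC1*) of all genes tested.

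The plakin genes *EVPL* and *PPL* behaved apart from the other 8 envelope genes. *EVPL* was 1.19-fold lower in DCIS.COM with the empty vector (log2 fold change -0.25, SE 0.055, adjusted p = 0.000953) and 1.18-fold higher with *MALINC1* (0.23, adjusted p = 0.00169). *PPL* had a log2 difference of -0.12 (SE 0.057, adjusted p = 0.0679) with the empty vector and was 1.18-fold higher with *MALINC1* (0.24, adjusted p = 0.00195). Both genes were above 70 CPM in every library. The small gap between the lines did not extend to all plakins. Of 15 other plakin and desmosome genes tested, 11 fell in DCIS.COM with the empty vector and 0 rose. The fallers included the plakins *DSP* (log2 fold change -1.81), *PLEC* (-1.76) and *EPPK1* (-3.45). With *MALINC1* in both lines 8 of the 15 fell and 0 rose.

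**Figure D4:**
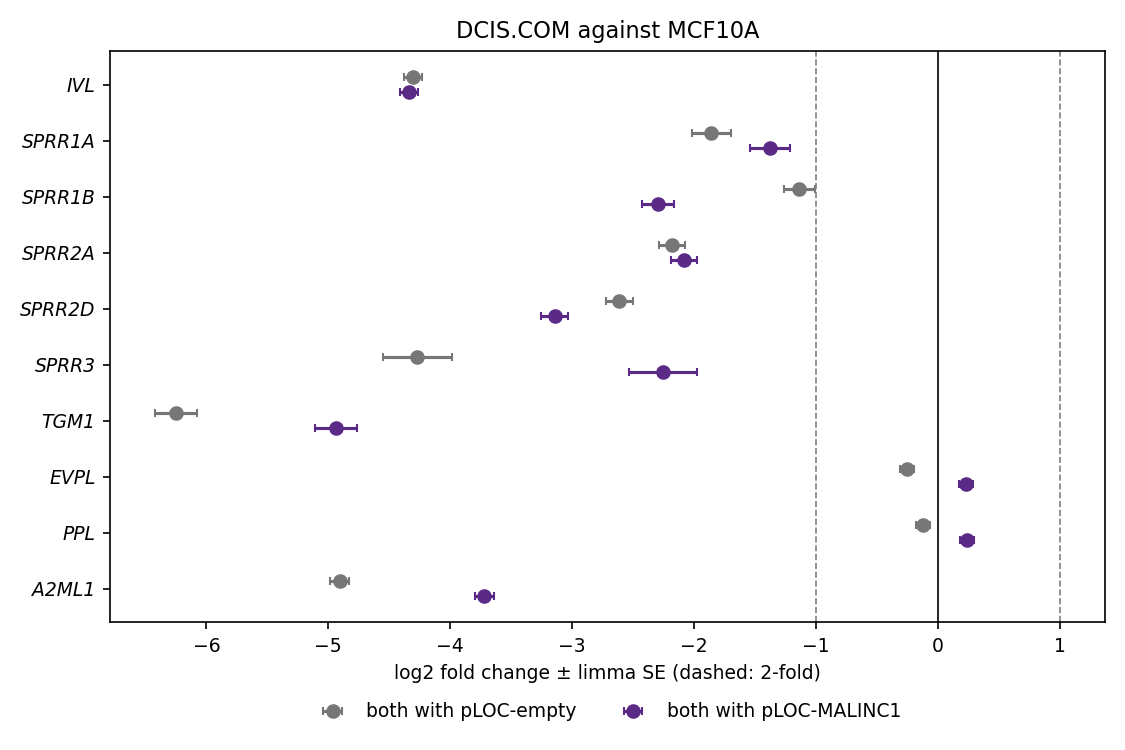
Log2 fold change of each envelope gene between DCIS.COM and MCF10A, both with pLOC-empty (grey) or both with pLOC-*MALINC1* (purple), with the limma standard error; dashed lines mark 2-fold. All genes but *EVPL* and *PPL* lie to the left of the 2-fold line, *TGM1* farthest with the empty vector at -6.25.

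Because reads may be split between the *SPRR2* copies, the reads of *SPRR2A*, *SPRR2B*, *SPRR2D* and *SPRR2E* were also summed before the fit. The sum was at 39.1 and 38.6 CPM in MCF10A pLOC-empty and 87.2 and 78.4 CPM in MCF10A pLOC-*MALINC1*, a DEG (log2 fold change 1.09, SE 0.073, adjusted p = 1.54e-07). In DCIS.COM it was at 7.18 and 6.54 CPM against 13.7 and 12.6 CPM, higher but under 2-fold (0.93, SE 0.073, adjusted p = 7.02e-07). The responses of the lines did not differ beyond the threshold for the sum (-0.15, SE 0.10, adjusted p = 0.237). Between the lines the sum differed by -2.49 with the empty vector and by -2.65 with *MALINC1*.

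The neighbours of *IVL* and the *SPRR* genes in the epidermal differentiation complex did not all follow them. Of 63 coding genes of the complex 22 were tested, and 16 of these are not among the genes described here. Of the 16, 3 rose and 0 fell in MCF10A (median log2 fold change 0.39), and 3 rose and 1 fell in DCIS.COM (median 0.34). In MCF10A the calcium-binding protein genes *S100A9* (log2 fold change 1.89, adjusted p = 1.33e-09), *S100A2* (1.49, adjusted p = 1.22e-10) and *S100A8* (2.48, adjusted p = 1.27e-05) rose. *S100A8* was rare, at a mean of 3.91 CPM in the higher group. In DCIS.COM *S100A4*, another gene of this family, fell by 2.44 on the log2 scale (adjusted p = 1.64e-11), and the filaggrin gene *FLG* and the copies *SPRR2B* and *SPRR2E*, each under 5 CPM, rose. The S100 genes that rose in MCF10A lie on the far side of the *SPRR* genes from *IVL*, with log2 fold changes in DCIS.COM of 0.31 (*S100A9*), 0.057 (*S100A2*) and -0.29 (*S100A8*).

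**Figure D5:**
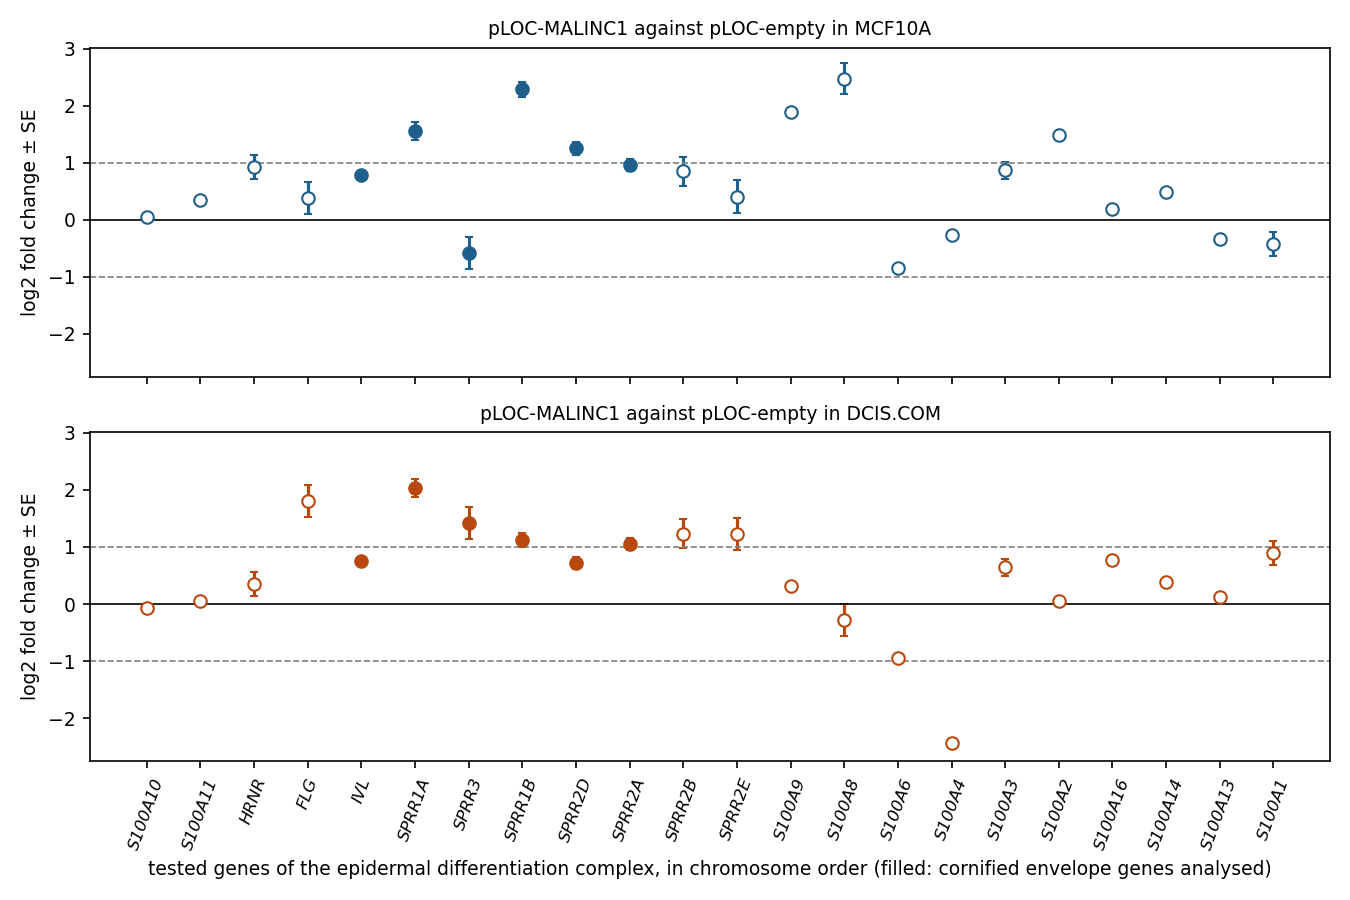
Response to *MALINC1*, as the log2 fold change over pLOC-empty with its standard error, of the 22 tested genes of the epidermal differentiation complex in chromosome order, in MCF10A (top) and DCIS.COM (bottom); filled points are the 6 envelope genes described here. *SPRR1B* reaches 2.28 in MCF10A, while *S100A4* lies at -2.44 in DCIS.COM.

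Other genes of cornification were described as lists, whose DEGs under 5 CPM and those beyond the 3 largest per list and line are named here after their values had been seen. Of 63 other envelope precursors and enzymes 18 were tested, and 1 rose (*CSTA*) and 1 fell (*CDSN*) in MCF10A, with a median log2 fold change of 0.46. In DCIS.COM 4 rose (*FLG*, *CST6*, *SPRR2B* and *SPRR2E*) and 0 fell, with a median of 0.58. All but *CST6* are the risers already counted in the complex, and *CST6* was rare, at a mean of 1.03 CPM in the higher group. *CSTA*, the envelope protein and cysteine protease inhibitor cystatin A, was at 58.2 ± 0.0126 against 160 ± 15.7 CPM in MCF10A (log2 fold change 1.45, adjusted p = 2.85e-09) and had a log2 fold change of -0.98 in DCIS.COM (adjusted p = 1.01e-07). Of 28 genes of the lipid envelope and barrier lipids 18 were tested, and 2 rose in MCF10A (*SULT2B1*, a cholesterol sulfotransferase, and *NIPAL4*; median 0.13), while 1 fell in DCIS.COM (*LIPK*; median -0.038). *SULT2B1* reached 10.8 CPM in MCF10A pLOC-*MALINC1* (log2 fold change 1.94, adjusted p = 1.15e-05).

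Among the regulators, *GRHL3*, a grainyhead transcription factor of epidermal barrier formation, rose in both lines. In MCF10A it was at 4.50 ± 0.271 CPM against 12.3 ± 1.97 CPM (log2 fold change 1.43, adjusted p = 5.83e-06) and in DCIS.COM at 2.50 ± 0.292 against 7.32 ± 0.899 CPM (1.52, adjusted p = 4.35e-06; SD, n = 2). Of 34 differentiation transcription factors 32 were tested, and 6 rose and 1 fell in MCF10A (median 0.012), against 4 and 2 in DCIS.COM (median 0.15). In MCF10A *TP63*, a lineage factor of stratified epithelia, was at 4.92 ± 0.450 CPM with the empty vector and at 40.9 ± 1.11 CPM with *MALINC1*, a rise of 3.04 on the log2 scale (adjusted p = 1.08e-11). In DCIS.COM *BARX2* rose (2.29, adjusted p = 1.13e-05) and *MAF* fell by 1.04 on the log2 scale (adjusted p = 0.00101). *TP63* was not called in DCIS.COM, where it was at 56.6 ± 1.13 and 49.6 ± 0.598 CPM.

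Of 12 AP-1 subunits 10 were tested. In MCF10A 2 rose, *FOSL1* (log2 fold change 1.76, adjusted p = 1.77e-08) and *FOS* (1.63, adjusted p = 8.70e-07), and 0 fell over 2-fold (median -0.35). At any fold change 2 were higher and 5 lower at an adjusted p below 0.01, the lower ones including the more abundant *JUN*, at 166 ± 7.5 against 88.1 ± 1.54 CPM (-0.91, adjusted p = 4.18e-07), and *FOSL2*, at 137 ± 5.05 against 76.7 ± 3.77 CPM (-0.84, adjusted p = 5.81e-08). The summed level of the 10 subunits was 486 to 499 CPM with the empty vector and 344 to 346 CPM with *MALINC1*. In DCIS.COM 0 rose and *FOSL2* fell by 2.12 on the log2 scale (adjusted p = 1.64e-11; median 0.078). In that line 3 subunits (*JUN*, *JUNB* and *FOSL1*) were higher and 1 lower at any fold change, with sums of 153 to 154 CPM and 121 to 122 CPM. The lower sum follows *FOSL2*, at 65.9 ± 0.349 against 15.1 ± 0.779 CPM. There *FOSL1* was higher by less than 2-fold (0.53, adjusted p = 0.000498) and *FOS* did not pass the test (-0.25, adjusted p = 0.152). Of 17 kinases linked to the control of *IVL*, 1 fell in MCF10A (*MAP2K6*; median 0.068) and 0 were DEGs in DCIS.COM (median 0.021).

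Structural partners of the envelope were counted next. Of 19 stratified epithelial keratins 15 were tested, and 2 rose in MCF10A (*KRT14* and *KRT78*; 13.3%, against 2.99% of all genes; median 0.42) and 2 in DCIS.COM (*KRT13* and *KRT4*; 13.3%, against 1.44%; median 0.10). *KRT13*, a keratin of the upper layers of mucosal epithelia, was at 2.05 ± 0.133 against 39.6 ± 2.90 CPM in DCIS.COM (log2 fold change 4.22, adjusted p = 6.95e-12), and *KRT4*, its pairing partner, at 0.662 ± 0.144 against 5.93 ± 0.0200 CPM (3.05, adjusted p = 6.83e-08). *KRT14* was at 1452 ± 38.9 against 2922 ± 45.0 CPM in MCF10A (1.01, adjusted p = 1.19e-09). Of 17 plakin and desmosome genes other than *EVPL* and *PPL* 15 were tested, and 2 rose in MCF10A (*DSG1* and *DSG4*; 13.3%; median 0.38) and 0 in DCIS.COM (median 0.48). The MCF10A risers *KRT78*, *DSG1* and *DSG4* were rare, at means of 2.35, 2.29 and 1.86 CPM in the higher group. Of the transglutaminase family 4 of 9 genes were tested, *TGM1* included, and only *TGM2* was a DEG, falling in DCIS.COM by 2.97 on the log2 scale (adjusted p = 1.32e-08). Of the alpha-2-macroglobulin family 3 of 5 were tested, and beside the rise of *A2ML1* in DCIS.COM *CPAMD8* fell there by 3.01 on the log2 scale (adjusted p = 1.43e-06).

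For each envelope gene, the genes with the most similar profile were taken as those with the smallest Euclidean distance of log2 CPM, centred on each gene's mean over the 8 libraries, among 10769 genes at 5 CPM or more on average, the envelope genes themselves left out. The nearest to *IVL* was *IL1RN* at 0.262, the interleukin 1 receptor antagonist gene, followed by *GSDMC* at 0.364, and the nearest to *SPRR2D* was *CA2* at 0.271, followed by *SOX15* at 0.443. For comparison, a gene at the same level in all libraries would lie 6.21 from *IVL* and 4.33 from *SPRR2D*. The nearest to *SPRR2A* were *TGM5* (0.593) and *ZNF365* (0.730), to *SPRR1B* *AREG* (0.999) and a gene without a symbol (1.04), and to *SPRR1A* *AQP3* (1.25) and *LPXN* (1.26), while *SPRR1B* lay 1.19 from *SPRR1A*. *A2ML1* was nearest to *VGLL1* (0.906) and *IL1RN* (0.953), *TGM1* to *ALDH1L2* (0.767) and *NEBL* (0.880), and *SPRR3* to *EPGN* (0.878) and *CYP4F3* (1.03). The profiles of *EVPL* (nearest *CDC45* at 0.134 and *PTPRF* at 0.144) and *PPL* (*MARCHF2* at 0.145 and *TOP2B* at 0.146) were so flat that a constant gene lay only 0.475 and 0.411 away. Among the envelope genes themselves *EVPL* and *PPL* were closest at 0.579, followed by *IVL* and *A2ML1* at 0.998, and the near-identical *SPRR2A* and *SPRR2D* lay 1.19 apart. These distances are descriptions over 8 libraries that share 4 groups.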

How the data were processed

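RNA was sequenced by the authors in 8 libraries of transduced MCF10A and DCIS.COM cells as 76 nt paired-end reads. Per the paper's methods and the submitters' processing notes, reads were aligned to hg19, counted on genes with featureCounts and normalized with edgeR. The deposited table holds log2 CPM per gene and library, with a prior count added by the authors. From it, whole reads were recovered (100% of values within 0.1 of a whole number), the value of a gene without reads being 0.0713 CPM. The strand setting is not given in the sources used here.

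A linear model with 4 group means was fitted to the deposited log2 CPM (limma 3.58.1, R 4.3.3; eBayes with a trend). A filter of 0.5 CPM in 2 libraries kept all 13842 genes. The fit had 7.98 prior and 4 residual degrees of freedom. Calls needed a fold change above 2 with p, adjusted by Benjamini-Hochberg, below 0.01, as in the study's methods. The steps were tested on simulated data with a single fixed spread and with changes placed only in genes above a minimum level. That test does not cover the rarest transcripts. The 10 genes, the gene lists and the tests were chosen with earlier results of these data known. All 10 genes are named; from 13 lists and the epidermal differentiation complex, those called in both lines and the 3 largest changes per line at 5 CPM or more are named, apart from 1 that is not reported here. Alternatives changed the pseudocount, filter, scaling, model and thresholds, and left out each library. The 5 contrasts are 1 per line, their difference, and the lines with each vector. Positions are from GENCODE on GRCh37, promoters from RefSeq, and figures were drawn with matplotlib 3.10.9 in Python 3.11.15.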

Additional observations from a re-analysis of the deposited data

Results flagged for a closer look

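For 4 of the 10 envelope genes the response to *MALINC1* in DCIS.COM differed from that in MCF10A by over 2-fold, by the interaction contrast of limma. The difference was -1.16 on the log2 scale for *SPRR1B*, which rose in both lines, 2.02 for *SPRR3*, 1.31 for *TGM1* and 1.18 for *A2ML1*, which rose in DCIS.COM. *TGM1* and *SPRR3* had opposite signs in the lines. Of these, *TGM1* in DCIS.COM (adjusted p = 0.0519) and *SPRR3* in MCF10A (adjusted p = 0.0976) did not pass the limma test. The difference of *SPRR3* rests on 2 and 5 reads in DCIS.COM pLOC-empty, and that of *TGM1* on 12 and 14 reads there.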

How the results depend on the processing

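Of 104 recomputed counts of called envelope genes, 98 stayed within 1.5 times the reported count. With any fold change 8 genes were called in MCF10A in place of 3, and 8 in DCIS.COM in place of 5. In DCIS.COM 3 were called with a pseudocount of 0.5 CPM and 2 with 1 CPM, and 3 to 5 when 1 library was left out, the 3 without DCIS.COM pLOC-empty replicate 2. For the difference between the lines, 2 were called without an intensity trend in place of 4, *TGM1* and *SPRR3* being lost, and *SPRR1B* was under 2-fold with quantile normalization (-0.93). Of 950 recomputed fold changes of single genes, 917 kept their sign and side of the threshold, 19 lost and 2 gained a call, and 12 changed sign, all of them not called. For the difference of *IVL* the sign changed with quantile normalization (0.13), with library sizes without *RN7SL1* and *RN7SL2* (0.043) and without MCF10A or DCIS.COM pLOC-*MALINC1* replicate 1 (0.070 and 0.041; -0.13 to 0.070 over all libraries left out). For that of *SPRR2A* it changed with a pseudocount of 1 CPM (-0.064), without MCF10A pLOC-*MALINC1* replicate 2 (-0.031; -0.031 to 0.22 over all libraries left out) and with the reads of 4 *SPRR2* genes summed (-0.15), an alternative chosen after seeing the data, which also took *SPRR2A* past the threshold in MCF10A (1.09) and under it in DCIS.COM (0.93). *EVPL* in MCF10A was at 0.013 and 0.052 without replicate 2 of pLOC-empty or pLOC-*MALINC1* (range -0.12 to 0.052). *PPL* in DCIS.COM was at 0.030 without *RN7SL1* and *RN7SL2* and 0.040 without pLOC-empty replicate 2 (range -0.048 to 0.040), and between the empty-vector lines at 0.042 with quantile normalization. The causes were not tested. Library sizes without *RN7SL1* and *RN7SL2* moved the median of all genes between the lines to 0.14 and 0.18, and every envelope gene called in those comparisons kept its call.

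The filter of 0.5 CPM changed nothing, since every gene passed it. The alternative filter of 1 CPM in at least 2 libraries changed no call or sign of the envelope genes. The fit of only the groups compared was not run for the difference, which uses all groups. With a replicate block 3, 5 and 4 genes were called in MCF10A, in DCIS.COM and for the difference, and 8 in each comparison of the lines. Deviations of same-numbered replicates correlated at -0.067 to 0.038 between groups. No pairing of the libraries by number was thus seen, but 2 libraries per group cannot exclude one. Transcripts such as *SPRR3* and *TGM1* in DCIS.COM, with 2 to 37 reads, are the least precise of the 10. Their SE is shared with MCF10A and does not show this, so p-values that use their DCIS.COM libraries may be too small. The same holds for *SPRR1A*, with 16 and 19 reads in DCIS.COM pLOC-empty.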
